A study of Homo sapiens with 6 samples.

Results

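The genes described here are 10 enzymes that handle superoxide, peroxides and reactive electrophiles: the glutathione peroxidases GPX1, GPX4 and GPX7, the glutathione transferases GSTP1, GSTO1, GSTM3 and MGST1, the superoxide dismutases SOD1 and SOD2, and catalase, CAT. They were chosen by gene name, and 11 of the 58735 gene rows of the expression table carry these names, because SOD2 is listed under 2 gene identifiers. SKM-1, an established human line from acute myeloid leukaemia, was exposed for 48 h to celastrol (3 libraries) or to DMSO, the solvent control (3 libraries), and its RNA was sequenced. Celastrol is a triterpenoid from the thunder god vine, and the labels used here state no dose. Separate cultures are not recorded for the 3 libraries of either treatment, so p-values reflect variation between libraries that may be technical.

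Superoxide dismutases turn superoxide into hydrogen peroxide, SOD1 in the cytosol with copper and zinc and SOD2 in mitochondria with manganese. Catalase removes hydrogen peroxide in peroxisomes, and glutathione peroxidases reduce peroxides at the expense of glutathione. GPX1 and GPX4 carry selenocysteine in their active site, and GPX4 reduces lipid peroxides within membranes. Glutathione transferases join glutathione to electrophilic compounds, and several of them are targets of the transcription factor NRF2 in liver and other tissues.

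The libraries held between 15231742 and 16231066 reads with celastrol and between 13549187 and 15410904 with DMSO, recovered from the deposited FPKM, a read level divided by gene length and library size. Reads on the mitochondrial chromosome made up between 1.37% and 1.85% of a celastrol library and between 5.44% and 5.65% of a DMSO library. Markers of the labelled lineage were sparse: 7 of 16 monocytic and myeloid markers reached a mean of 1 FPKM, MPO lay below 0.1 FPKM in every library, and the markers summed to between 52.3 and 57.0 FPKM with celastrol and between 72.3 and 84.4 with DMSO. Of 18 erythroid markers, 16 reached that mean, and their sum was between 701 and 775 FPKM with celastrol and between 890.0 and 956 with DMSO. The 6 epithelial and stromal markers, 3 at that mean, summed to between 123 and 125 FPKM with celastrol and between 151 and 172 with DMSO. The 6 lymphoid markers, 3 at that mean, summed to between 15.4 and 15.9 FPKM with celastrol and between 8.42 and 10.4 with DMSO. In bulk RNA, fewer cells of a type and less RNA per cell cannot be told apart.

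Catalase fell with celastrol, and each celastrol library lay below each DMSO library. SOD1, MGST1 and GSTM3 rose, by amounts that single libraries could take across the threshold. GPX4, GSTP1, GSTO1 and SOD2 were not called. GPX1 and GPX7 lay below the minimum mean for testing. Of the 8 tested genes, 3 were called higher and 1 lower, at a Benjamini-Hochberg adjusted p under 0.05 in limma-trend. Of all 12685 tested genes, 15.3% were called higher, 14.2% lower and 29.5% in either direction. These shares are the background for the counts here and for those of every list below. The median log2 fold change of the 8 genes was 0.10, against 0.02 for all genes. GSTM3 passed the minimum mean of 1 FPKM only through its celastrol libraries. Its part in the calls, in the median of the 8 and in the values without overlap therefore lends no support. Values did not overlap between treatments for 4 of the 8, GSTM3 included, as for 47.3% of all genes tested.

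Promoter sequence, 250 bases before and 50 after the RefSeq start, was matched for 9 of the 10 genes in RefSeq tables of GRCh38.p14; SOD1 was not among them. The core of the antioxidant response element, which NRF2 binds with small MAF proteins, was searched as TGACNNNGC on both strands, and lay in 3 of the 16 windows of the 9 genes (1 each of GSTP1, GSTO1 and MGST1), against 13.3% of all 35116 such windows. An AP-1 site, TGACTCA on both strands, lay in 1 of the 16 windows, that of GSTP1, inside its antioxidant element, and in 4.95% of all windows. A GC box, GGGCGG on both strands, lay in 14 of the 16 windows and in 45% of all windows; windows of 1 gene can overlap. A match describes letters and is not a measured binding site. The matches to the antioxidant core are shown with their neighbours because these are the genes whose sequence holds the motif most often tied to this enzyme group; capitals mark the core, which begins 66 bases before the start in GSTP1, 226 and 161 bases before it in GSTO1, and at base 31 after a start in MGST1.
GSTP1, chr11:67583736-67583764, plus strand: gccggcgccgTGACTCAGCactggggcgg
GSTO1, chr10:104254656-104254684, plus strand: ggcggagggaTGACTGAGCatttataact
GSTO1, chr10:104254721-104254749, plus strand: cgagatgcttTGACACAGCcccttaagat
MGST1, chr12:16347135-16347163, plus strand: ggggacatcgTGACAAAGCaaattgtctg

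The 250 bases before the start are shown for CAT, the gene that fell, and for GSTM3 and MGST1, transferase genes that rose; capitals mark GC boxes on either strand. For MGST1 the window is that of another of its 3 RefSeq starts, not the start with the antioxidant core. CAT held 18 CG dinucleotides and 68.8% G and C in these bases, GSTM3 1 and 40.0%, and MGST1 12 and 56.4%. The median over all windows was 11 and 58%. At its other starts MGST1 held 3 and 37.6%, and 19 and 66.0%, so the window shown does not stand for the gene. None of the 3 stretches shown held the antioxidant core. The GSTM3 window held none of the 3 motifs.
CAT, chr11:34438684-34438933, plus strand: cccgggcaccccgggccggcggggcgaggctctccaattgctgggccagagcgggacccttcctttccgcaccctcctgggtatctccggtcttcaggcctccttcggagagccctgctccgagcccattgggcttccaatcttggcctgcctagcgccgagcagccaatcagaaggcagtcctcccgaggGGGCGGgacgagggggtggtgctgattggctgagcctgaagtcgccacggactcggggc
GSTM3, chr1:109741039-109741288, minus strand: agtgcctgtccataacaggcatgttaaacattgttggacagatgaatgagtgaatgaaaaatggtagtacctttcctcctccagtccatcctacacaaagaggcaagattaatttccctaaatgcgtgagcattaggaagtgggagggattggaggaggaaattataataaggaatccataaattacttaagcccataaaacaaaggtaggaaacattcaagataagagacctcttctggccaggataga
MGST1, chr12:16347395-16347644, plus strand: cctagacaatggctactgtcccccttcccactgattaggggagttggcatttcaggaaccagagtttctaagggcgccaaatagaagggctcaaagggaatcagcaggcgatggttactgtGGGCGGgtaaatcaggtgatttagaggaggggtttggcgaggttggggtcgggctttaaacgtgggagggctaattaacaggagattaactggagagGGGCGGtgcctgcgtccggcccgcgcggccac

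**Figure D1:**
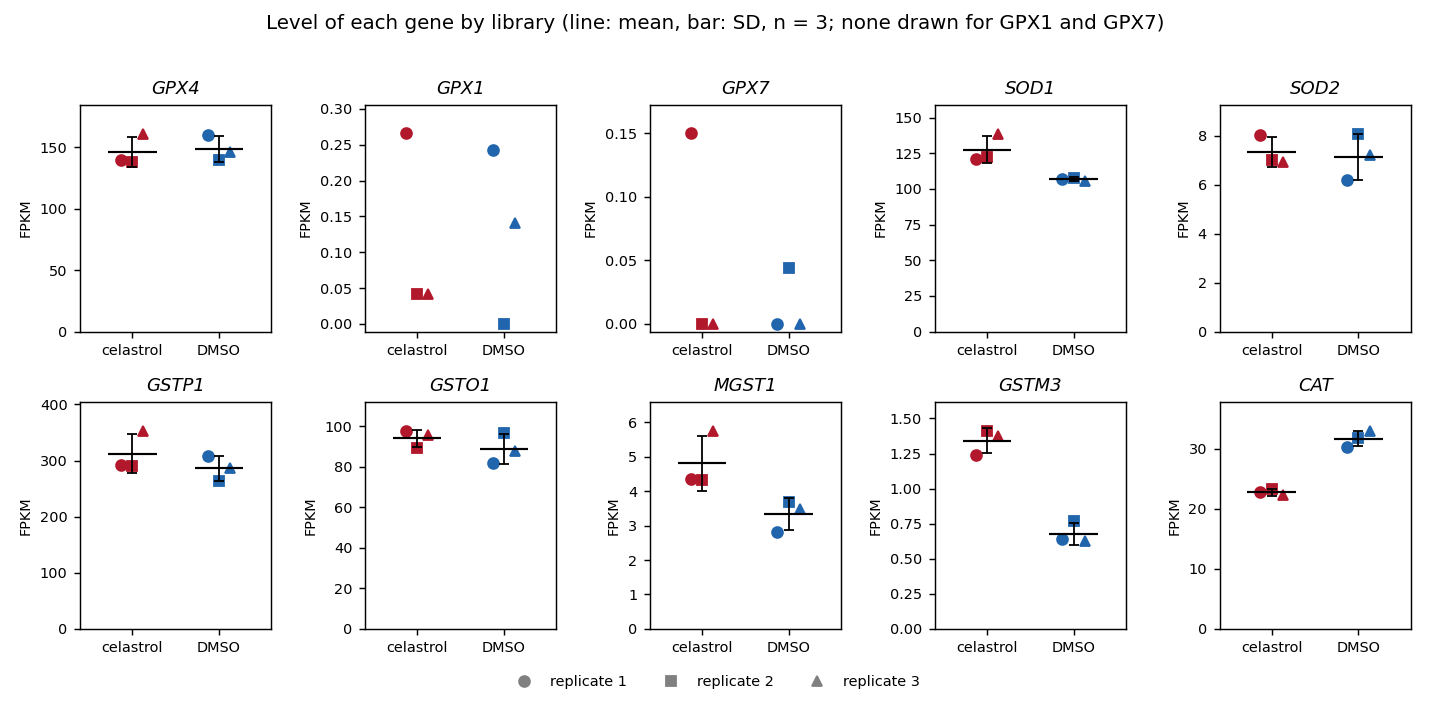
FPKM of each of the 10 genes (vertical axes, linear, each with its own range) in the 3 celastrol and 3 DMSO libraries; symbols mark replicate numbers, lines the mean and bars the SD, left out for GPX1 and GPX7. CAT is lower in every celastrol library than in any DMSO library, SOD1, MGST1 and GSTM3 are higher in every one, and the other tested genes overlap; GPX1 and GPX7 stay below 0.3 FPKM.

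The 8 tested genes kept the same order of level in all 6 libraries: GSTP1, GPX4, SOD1, GSTO1, CAT, SOD2, MGST1 and GSTM3. GSTP1, the pi-class transferase, lay between 264 and 352 FPKM and had rank 85 among all genes by mean FPKM. GPX4 lay between 138.1 and 160 FPKM and SOD1 between 106 and 138.3, so these neighbours met at their edges over the 6 libraries. The ranges of the other neighbours did not meet. Within the transferases described here GSTP1 gave between 74.0% and 77.4% of the summed FPKM with celastrol and between 72.2% and 78.3% with DMSO. GPX4 gave at least 99.7% of the summed FPKM of the 3 peroxidases in every library, a share that takes the near-zero GPX1 row, described below, at face value.

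SOD1 (ENSG00000142168, chromosome 21, 31659622 to 31668931, plus strand; gene positions are those of the file, on GRCh38) had 121, 123 and 138 FPKM in celastrol replicates 1 to 3, against 107, 108 and 106 FPKM in DMSO replicates 1 to 3. Every celastrol library lay above every DMSO library, and celastrol replicate 3 was the highest. With the SD over 3 libraries, here and below, the means were 127 ± 9.48 FPKM with celastrol and 107 ± 1.22 with DMSO, a 1.19-fold difference (log2 fold change 0.25, SE 0.07, limma-trend adjusted p = 0.0354). Of the fits with 1 library left out, the call was kept only without celastrol replicate 1 (adjusted p = 0.0491), and adjusted p reached 0.129 without DMSO replicate 3. The pseudogene SOD1P3 was listed at 17 to 47 reads per library, and none of the 100-base stretches of SOD1 transcripts occurred in transcripts of another gene.

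SOD2 (ENSG00000112096, chromosome 6, 159669057 to 159745186, minus strand) had 8.03, 7.03 and 6.94 FPKM with celastrol, against 6.18, 8.06 and 7.20 FPKM with DMSO. The groups overlapped, with the lowest and the highest value both among DMSO libraries. The log2 fold change was 0.04, with a 95% interval of -0.22 to 0.30 (limma-trend adjusted p = 0.809). Its gene model spans 16493 exon bases, of which 6.93% also belong to exons of another gene. The other SOD2 row (ENSG00000285441), which shares 90.5% of its exon bases with other genes, had 0 to 5 reads per library.

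Within each library, the ratio of SOD2 to SOD1 does not depend on scaling by 1 factor per library, though quantile normalization can change it. It was 0.0663, 0.0573 and 0.0501 in celastrol replicates 1 to 3, against 0.0577, 0.0747 and 0.0682 in DMSO replicates 1 to 3. The values overlapped, with a mean log2 difference of -0.21 (two-sided exact permutation p = 0.2; adjusted p = 0.2 over 2 ratios). The smallest p that 3 against 3 libraries allow is 0.1.

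Genes of copper, zinc and manganese supply, metals that the dismutases carry, moved both ways. Of 8 listed, SOD3 included, 6 were tested, 2 were higher and 2 lower, against 15.3% and 14.2% of all genes. The median log2 fold change was 0.02, the same as for all genes tested. SLC39A14, a zinc, iron and manganese importer, was 1.54-fold lower at 13.2 ± 0.391 FPKM with celastrol and 20.3 ± 0.861 with DMSO (limma-trend adjusted p = 0.000854). SLC39A8, another importer of manganese and zinc, was 1.40-fold lower, at 3.54 ± 0.0912 FPKM with celastrol and 4.96 ± 0.734 with DMSO (adjusted p = 0.0207). The copper chaperones SCO1, which serves cytochrome oxidase, and ATOX1, which serves copper pumps, rose by log2 fold changes of 0.35 and 0.30 (adjusted p = 0.0242 and 0.0396). The calls of SLC39A8, SCO1 and ATOX1 were each kept in 2 of 6 fits with a library left out, and that of SLC39A14 in all 6. SOD3, the extracellular dismutase, was listed at 0 in all celastrol libraries and in 2 of 3 DMSO libraries, and is named after its values were seen.

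CAT (ENSG00000121691, chromosome 11, 34438925 to 34472062, plus strand) had 22.7, 23.4 and 22.2 FPKM in celastrol replicates 1 to 3, against 30.3, 31.9 and 32.9 FPKM in DMSO replicates 1 to 3. The spread within a treatment was small beside the gap between treatments. The means were 22.8 ± 0.573 FPKM with celastrol and 31.7 ± 1.30 with DMSO (n = 3 each), a 1.39-fold decrease (log2 fold change -0.47, SE 0.07, limma-trend adjusted p = 0.00231). Between 1287 and 1755 reads per library stood behind these values. CAT was called lower under all 16 alternative settings, with adjusted p between 0.000851 and 0.0323. Catalase is abundant in red cells, and 12 of 16 tested erythroid markers were also lower (median log2 fold change of the 16: -1.32). So were 3 of 7 tested monocytic and myeloid markers, where 14.2% of all genes tested were called lower. Of the 16 tested erythroid markers, 3 lay above 0 on the log2 scale. RHAG, named after its values were seen, was among them, at 290 ± 5.96 FPKM with celastrol and 261 ± 12.4 with DMSO. It was not called (log2 fold change 0.15, limma-trend adjusted p = 0.125). None of the 18 erythroid markers was below 0.1 FPKM in every library. Their part in the decrease of CAT was not tested.

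Of 17 tested genes of the organelle that holds catalase, those of peroxisome biogenesis, import and beta-oxidation, 5 were higher and 0 lower, with a median log2 fold change of 0.16 against 0.02 for all genes, of which 15.3% were higher. The 5 became 3 without celastrol replicate 2, without celastrol replicate 3 and without DMSO replicate 3. With no filter on low values it was 3, as TPM 10 and by limma-voom 8. The fit that left out DMSO replicate 2 gave 6 higher calls and 1 lower, PEX6, part of the complex that recycles the import receptor (adjusted p = 0.0243 in limma-trend), named after its value was seen. PEX10, a ubiquitin ligase of the peroxisomal import cycle, was 1.54-fold higher at 6.41 ± 0.244 FPKM with celastrol and 4.15 ± 0.789 with DMSO (limma-trend adjusted p = 0.0118). ABCD3, a fatty acid transporter of the peroxisomal membrane, was 1.33-fold higher at 6.77 ± 0.453 FPKM with celastrol and 5.07 ± 0.697 with DMSO (adjusted p = 0.0308), a call kept in 3 of 6 fits with a library left out. PEX5, the receptor that carries catalase into peroxisomes, was at -0.00 on the log2 scale (adjusted p = 0.976), and is named here after its value was seen. With all libraries, 0 of the 17 were lower at an unadjusted p under 0.05, and limma-voom called 0 lower.

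GPX4 (ENSG00000167468, chromosome 19, 1103926 to 1106791, plus strand) had 140, 138 and 160 FPKM with celastrol, against 160, 140 and 146 FPKM with DMSO. The groups overlapped over nearly their whole range. The log2 fold change was -0.02, with a 95% interval of -0.22 to 0.18 (limma-trend adjusted p = 0.852), and its sign turned above 0 when libraries were rescaled to TPM (0.22), to listed reads (0.07), to nuclear reads (0.01) or by quantiles (0.06). Between 3798 and 5450 reads per library stood behind it.

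GPX1 (ENSG00000233276, chromosome 3, 49357171 to 49358600, minus strand) was listed with 6, 1 and 1 reads in the celastrol libraries, against 5, 0 and 3 reads in the DMSO libraries, which is at most 0.266 FPKM. GPX1 is an abundant peroxidase of many tissues, and in this annotation it carries the biotype polymorphic pseudogene. Of 41 genes with that biotype in the table, 1 reached a mean of 1 FPKM. The processed copy GPX1P1 on chromosome X had 2 to 17 reads per library, and 4.25% of the 100-base stretches of GPX1 transcripts occurred in it. Whether the annotation bears on the low GPX1 values was not tested. GPX7, a peroxidase of the endoplasmic reticulum that uses cysteine in place of selenocysteine (ENSG00000116157, chromosome 1, 52602372 to 52609051, plus strand), had 4, 0 and 0 reads with celastrol, against 0, 1 and 0 reads with DMSO. No fold change is given for either gene, and neither was called when low genes were kept (limma-trend adjusted p = 0.971 for GPX1 and 0.727 for GPX7). Of the other 5 glutathione peroxidase genes none was tested, and the highest, GPX3, which encodes the plasma peroxidase, averaged 0.553 ± 0.0170 FPKM with celastrol and 0.501 ± 0.256 with DMSO. GPX2, the gastrointestinal form, averaged 0.218 ± 0.0894 FPKM with celastrol and 0.189 ± 0.0567 with DMSO (mean ± SD of 3 libraries each).

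Other selenoprotein genes, which share with GPX1 and GPX4 the insertion of selenocysteine at a UGA codon, gave 7 higher calls and 0 lower among 13 tested, at a median log2 fold change of 0.32, where 15.3% of all genes were called higher. There were 4 higher calls without DMSO replicate 3 and 5 to 7 without each of the other libraries, 4 with no filter on low values and 12 as TPM. SELENOM, an oxidoreductase of the endoplasmic reticulum, was 1.88-fold higher at 7.49 ± 1.80 FPKM with celastrol and 3.98 ± 0.366 with DMSO (limma-trend adjusted p = 0.00719). SELENOW and SELENOT, small selenoproteins with a thioredoxin-like fold, were each 1.65-fold higher (limma-trend adjusted p = 0.000808 and 0.00229). The selenium-containing reductase TXNRD1 had 42.9, 47.7 and 66.3 FPKM with celastrol, against 34.9, 35.3 and 36.1 with DMSO (adjusted p = 0.0307), and kept its call in 2 of 6 fits with a library left out. Of 9 tested genes for selenoprotein synthesis 1 was higher and 1 lower, with a median of 0.00: SECISBP2, which binds the selenocysteine insertion element, was 1.26-fold lower (adjusted p = 0.0325), and its relative SECISBP2L was 1.31-fold higher (adjusted p = 0.0482). SECISBP2 and SECISBP2L each kept the call in 2 of 6 fits with a library left out. Lower calls among the other selenoproteins, and among the peroxiredoxins, were 0 at an unadjusted p under 0.05 and 0 by limma-voom.

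Peroxiredoxins, thiol peroxidases that also remove hydrogen peroxide, gave 2 higher calls and 0 lower among 6 genes, where 15.3% of all genes were called higher. Their median log2 fold change was 0.07. PRDX1 had 256, 255 and 325 FPKM with celastrol, against 175, 167 and 187 with DMSO, a 1.58-fold difference called under all 16 alternatives (limma-trend adjusted p = 0.00419). PRDX4, the peroxiredoxin of the secretory pathway, was 1.33-fold higher (adjusted p = 0.0107). Of 5 tested genes of glutathione reduction, GLRX, the cytosolic glutaredoxin, was called, with 1.73, 2.65 and 4.45 FPKM with celastrol, against 1.33, 1.26 and 1.00 with DMSO. GLRX kept its call without 1 of the 6 libraries (adjusted p = 0.0303 with all 6). Glutathione reductase, GSR, which returns glutathione to its reduced form, lay at 0.05 on the log2 scale (adjusted p = 0.664) and is named after its value was seen.

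GSTP1 (ENSG00000084207, chromosome 11, 67583595 to 67586656, plus strand) had 293, 290 and 352 FPKM with celastrol, against 309, 264 and 287 FPKM with DMSO. Celastrol replicate 3 was the highest of the 6 libraries, and the other 2 celastrol libraries lay within the DMSO range. The log2 fold change was 0.12, with a 95% interval of -0.11 to 0.35 (limma-trend adjusted p = 0.390). It was called higher under 3 of 16 alternatives: as TPM (log2 fold change 0.36, adjusted p = 0.00844), after quantile normalization (0.30, adjusted p = 0.0159) and by limma-voom on recovered reads (0.22, adjusted p = 0.0486). GSTO1, the omega-class transferase that also reduces methylated arsenic compounds (ENSG00000148834, chromosome 10, 104235356 to 104267459, plus strand), had 97.5, 89.4 and 95.6 FPKM with celastrol, against 82.1, 97.0 and 87.9 with DMSO. Its log2 fold change was 0.08, with a 95% interval of -0.10 to 0.27 (adjusted p = 0.464). The groups overlapped for GSTO1 too, with a DMSO library among its 2 highest.

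MGST1, a membrane-bound transferase with peroxidase activity (ENSG00000008394, chromosome 12, 16347142 to 16609259, plus strand), had 4.34, 4.34 and 5.74 FPKM in celastrol replicates 1 to 3, against 2.81, 3.69 and 3.49 FPKM in DMSO replicates 1 to 3. All celastrol libraries lay above all DMSO libraries. The means were 4.81 ± 0.806 FPKM with celastrol and 3.33 ± 0.463 with DMSO (n = 3 each), a 1.44-fold difference (log2 fold change 0.51, SE 0.15, limma-trend adjusted p = 0.0359). The call was kept only without DMSO replicate 2 among the fits with a library left out. The ratio of MGST1 to GSTP1 within a library was 0.0148, 0.0149 and 0.0163 with celastrol, against 0.00911, 0.0140 and 0.0122 with DMSO, which did not overlap (mean log2 difference 0.41, exact permutation test, two-sided p = 0.1, the lowest possible here; adjusted p = 0.2 over 2 ratios).

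GSTM3, a mu-class transferase (ENSG00000134202, chromosome 1, 109733932 to 109741038, minus strand), had 1.24, 1.41 and 1.38 FPKM with celastrol, against 0.643, 0.766 and 0.623 FPKM with DMSO. It was the lowest of the tested genes, with 93, 111 and 110 reads with celastrol, against 44, 49 and 44 reads with DMSO. The groups were well apart, at 1.34 ± 0.0888 FPKM with celastrol and 0.678 ± 0.0774 with DMSO (n = 3 each), a 1.98-fold difference (log2 fold change 0.89, SE 0.26, limma-trend adjusted p = 0.0365). Its mean over all libraries was 1.01 FPKM, just above the minimum of 1, and the adjusted p was 0.0382 when low genes were kept. Whenever a celastrol library was left out it fell under the minimum and was not tested, and without DMSO replicates 1 and 3 in turn the call was lost (adjusted p = 0.0603 and 0.0912). Of its exon bases, 4.25% overlap the antisense gene AL158847.1, which had 0 or 1 read in each library.

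The other soluble transferases gave no call in the main limma-trend fit. Under the alternatives GSTM4 was called higher in 5 of 16 and GSTK1 lower in 2 of 16. GSTA4, GSTCD and GSTZ1 were called in none. Among 17 such genes listed, 5 were tested and 0 called, with a median log2 fold change of -0.03. At an unadjusted p under 0.05 there were 1 higher and 2 lower, and limma-voom on the recovered reads called 1 higher and 0 lower. Among them GSTK1, the mitochondrial and peroxisomal kappa-class enzyme, averaged 31.6 ± 0.482 FPKM with celastrol and 35.7 ± 1.58 with DMSO (limma-trend adjusted p = 0.0812), and GSTM4, a neighbour of GSTM3 in the mu-class cluster, averaged 8.23 ± 0.378 FPKM with celastrol and 7.01 ± 0.514 with DMSO (adjusted p = 0.0717). Of 2 tested relatives of MGST1, MGST2 was 1.29-fold higher, at 9.96 ± 0.456 FPKM with celastrol and 7.74 ± 0.749 with DMSO (adjusted p = 0.0213), a call kept in 3 of 6 fits with a library left out. MGST3 missed the threshold and is named after its value was seen (log2 fold change 0.26, adjusted p = 0.115).

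**Figure D2:**
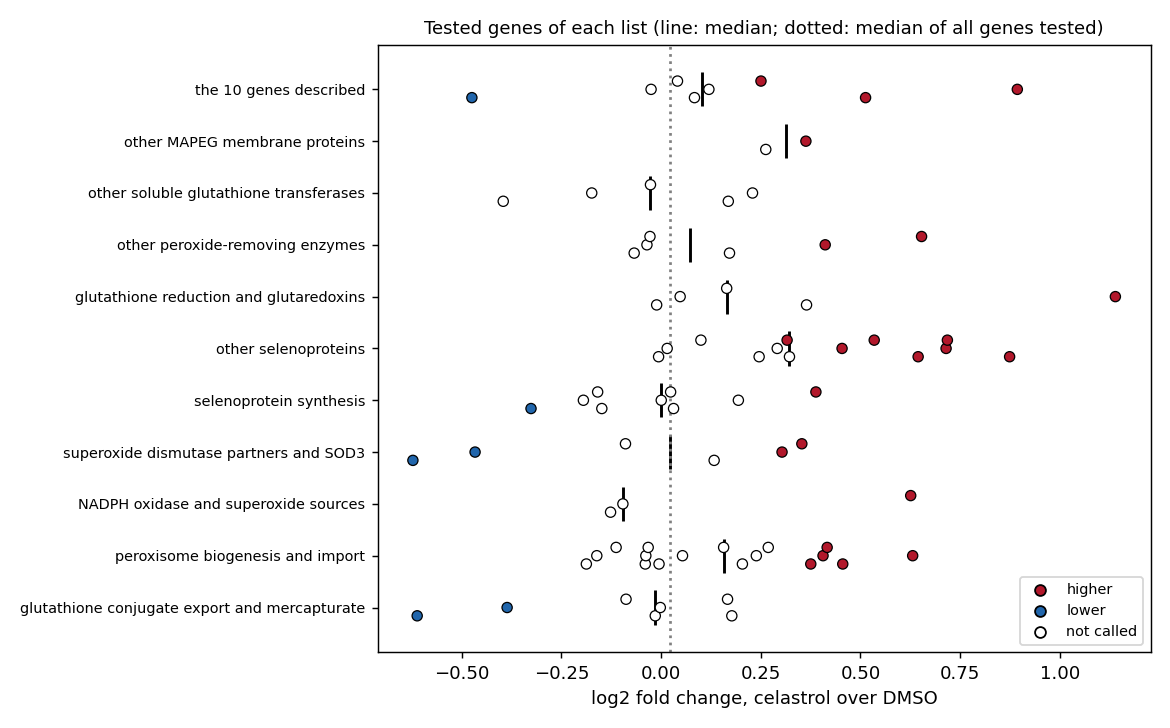
Log2 fold change of celastrol over DMSO (horizontal axis) for every tested gene of each list (rows); red points were called higher, blue points lower and white points were not called, with a line at each list's median and a dotted line at the median of all genes. CAT, at -0.47, is the blue point of the top row, and the selenoprotein row holds 7 red points.

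Celastrol replicate 3 had the highest value among the celastrol libraries for 4 of the 8 tested genes: GSTP1, GPX4, SOD1 and MGST1. How many of all genes tested were highest in this library was not counted, so the 4 have no background share. The same library was also the highest celastrol library for 3 NRF2 targets outside the group, which have no background share either. Its FPKM summed over all genes was the largest of the celastrol libraries, at 260862, against 255259 and 247786 in replicates 1 and 2. Whether the higher values are a trait of the whole library was not tested. NQO1, a quinone reductase, had 58.0, 72.6 and 105 FPKM with celastrol, against 27.8, 26.4 and 28.9 FPKM with DMSO. GCLM, of glutathione synthesis, had 18.2, 20.5 and 27.2 FPKM with celastrol, against 13.2, 17.1 and 14.7 with DMSO, and TXNRD1 is given above. Without celastrol replicate 3 the log2 fold changes were 0.03 for GSTP1, 0.19 for SOD1 and 0.38 for MGST1. None of these was called (limma-trend adjusted p = 0.830 for GSTP1 and 0.0865 for SOD1). Leaving out the highest celastrol library lowers a fold change by construction. GSTP1 was not called with all libraries either, and SOD1 and MGST1 each kept the call in only 1 of 6 fits with a library left out. GAPDH, a glycolytic enzyme often used as a control, had 426, 404 and 451 FPKM with celastrol, against 470, 427 and 443 with DMSO. ACTB, cytoskeletal actin, averaged 818 ± 21.8 FPKM with celastrol and 715 ± 51.1 with DMSO (adjusted p = 0.0837). Among the celastrol libraries GAPDH was highest in replicate 3 and ACTB in replicate 1.

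How libraries were scaled decided several of the smaller calls. The median log2 fold change over all genes was 0.02 as deposited, 0.26 as TPM (transcripts scaled to a fixed sum per library) and 0.12 when scaled to listed reads. Calls over all genes were 1947 higher and 1797 lower as deposited, 5266 higher and 813 lower as TPM, and 3024 higher and 1295 lower scaled to listed reads. Under TPM 6 of the 8 tested genes, GSTM3 included, were called higher, against 41.5% of all genes. GSTP1, GPX4 and GSTO1 were added at log2 fold changes of 0.36, 0.22 and 0.33. Relative to the median of all genes these were 0.10, -0.05 and 0.06. After quantile normalization GSTP1 lay 0.29 above the median of all genes, against 0.10 as deposited. CAT was lower under each scaling, at -0.47 as deposited and -0.23 as TPM, and relative to the median it lay at -0.50 under both. SOD1, relative to the median, lay at 0.23 under both scalings, and MGST1 at 0.49 and 0.50.

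**Figure D3:**
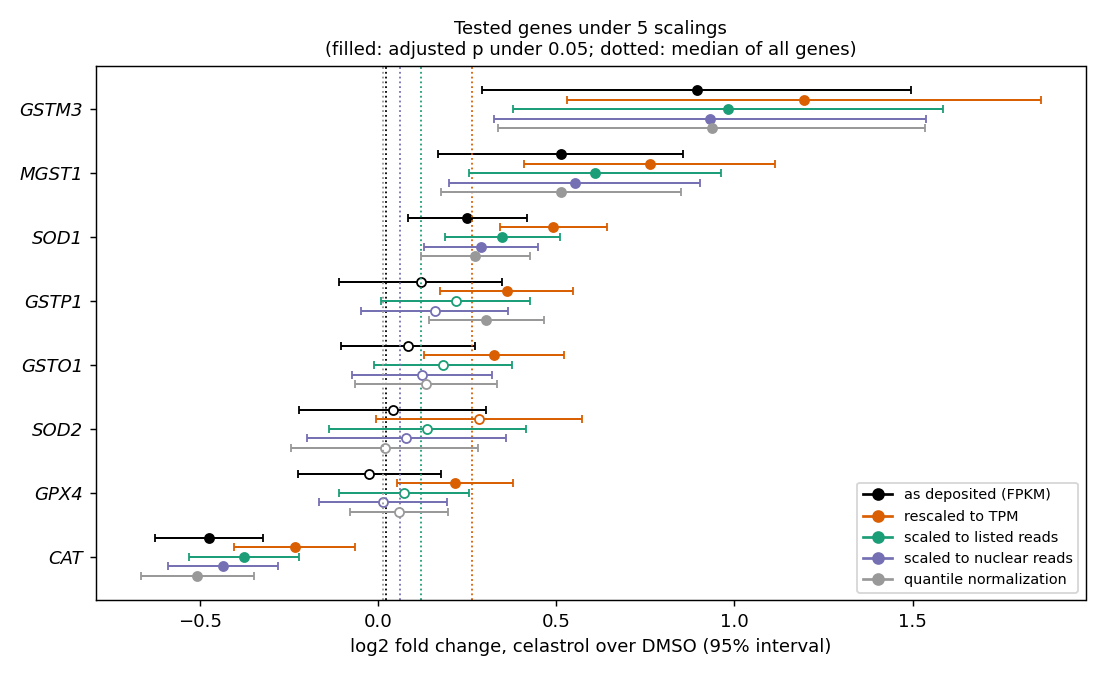
Log2 fold change of celastrol over DMSO with its 95% interval (horizontal axis) for the 8 tested genes under 5 scalings, shown by colour; filled points have an adjusted p under 0.05 and dotted lines mark the median of all genes under each scaling. CAT lies below 0 and SOD1, MGST1 and GSTM3 above 0 under all 5, while GPX4 crosses 0.

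The number of these genes called higher was read against the share of all genes called higher under the same setting. Not every setting tested the same genes. GSTM3 was not tested when a celastrol library was left out, and GSTM3 and MGST1 were not at a minimum mean of 5 FPKM. With no filter GPX1, GPX7 and the other SOD2 row were tested too. It was 4 after quantile normalization (14.9% of all genes) and 4 by limma-voom on recovered reads (28.8%), in both cases with GSTP1 added. It was 3 scaled to listed reads (23.8%), 3 scaled to nuclear reads (18.5%), and 3 with a pseudocount of 1 (15.4%) or of 0.01 (15.3%). It was 1 with no filter on low values (4.14% of all genes), 1 with a minimum mean of 5 FPKM (20.8%) and 1 with replicate number as a block (14%). With a library left out it was 1 without celastrol replicate 1 (11.2%), 0 without celastrol replicate 2 (8.82%) and 0 without celastrol replicate 3 (9.56%). It was 0 without DMSO replicate 1 (14.8%), 2 without DMSO replicate 2 (15.4%) and 0 without DMSO replicate 3 (8.98%). GSTM3 was in every count of 3 or 4, was the 1 with no filter, and was in the 2 without DMSO replicate 2. Where a minimum mean of 1 FPKM applied, it passed only through its celastrol libraries, so its part in those counts lends no support. CAT stayed called lower in each of these fits.

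**Figure D4:**
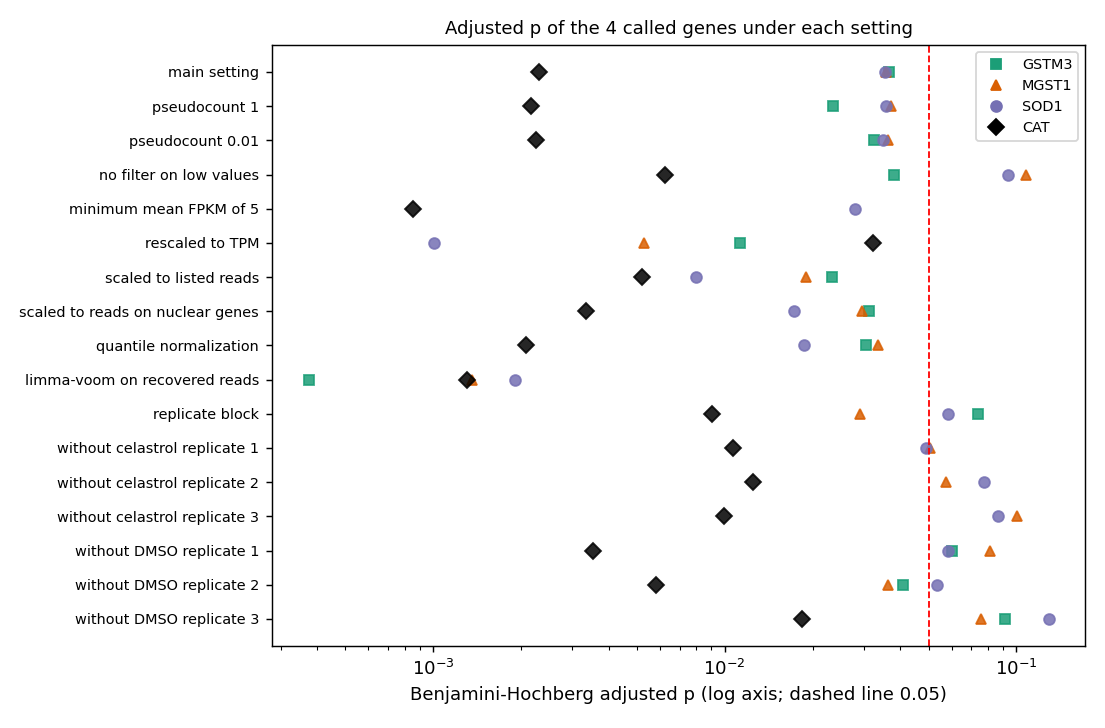
Adjusted p (horizontal log axis, dashed line at 0.05) of the 4 called genes under the main setting and each alternative (rows). CAT stays left of the line in every row, and SOD1 and MGST1 lie right of it in 5 of the 6 rows that leave out a library.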

How the data were processed

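The deposited file gives, for each gene and library, FPKM computed by the authors; the submitters' processing notes name HISAT2 2.0.5, featureCounts 1.5.0-p3 and the build GRCh38, without settings. All 58735 identifiers and positions matched GENCODE release 29. Reads were recovered from FPKM times gene length, which came out whole (to within 0.001 of a read) for 100% of nonzero values; the library total the authors divided by was between 1.04 and 1.05 times these reads with celastrol and between 0.963 and 0.994 times with DMSO. Whether strand was kept is not given, so overlapping antisense reads cannot be told apart.

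Tests used limma 3.58.1 in R 4.3.3 on log2(FPKM + 0.1), limma-trend, two-sided, for genes with a mean of at least 1 FPKM, with Benjamini-Hochberg adjustment over all of them at 0.05. Fold changes on this scale understate those of low genes; means, SD and fold differences are of FPKM. The steps were also run on simulated counts with far fewer changed genes and none with a change as small as that of SOD1. That run had no shift in mitochondrial reads between groups, so it does not test the scaling. The genes, lists and tests were chosen with earlier results of these data known. Named are the 10 genes, up to 3 called genes in each direction of every other list (or the 2 of highest mean where none was called), copies and overlapping genes, and NQO1, TXNRD1, GCLM, GAPDH and ACTB. GSTT1 was not analysed here, and 1 gene that the rule names is not reported here. Groups and replicate numbers come from sample titles. Nothing in the labels says that replicate numbers pair the cultures, so the main fit did not pair libraries by number. Deviations of same-numbered libraries correlated between -0.0326 and 0.0339, and those of differently numbered libraries between -0.0281 and 0.0408. Alternatives were pseudocounts, filters, scalings, a replicate block, each library left out, and limma-voom on the recovered reads, which was chosen after seeing the data.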

Additional observations from a re-analysis of the deposited data

How the results depend on the processing

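CAT was called lower under every one of the 16 settings tried. The counts that follow include GSTM3 wherever it was called, with the limit given above. The number of these 10 genes called higher, 3 in the main setting, was 6 under TPM, 4 after quantile normalization and 4 by limma-voom (GSTP1 added in both), 1 with no filter on low values, 1 with a minimum mean of 5 FPKM (GSTM3 and MGST1 then go untested) and 0 to 2 with a library left out: 1 without celastrol replicate 1, 2 without DMSO replicate 2, and 0 without each of the other libraries. With the replicate block it was 1 (MGST1), with 1776 genes called higher and 1617 lower over all genes; no pair of same-numbered libraries correlated above 0.1. The mean log2 differences of the SOD2 to SOD1 and MGST1 to GSTP1 ratios were -0.21 and 0.41. A replicate block cannot change these means, so it is no check of them. With a library left out they ranged from -0.31 to -0.11 and from 0.23 to 0.54.

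Over all genes, 5266 were called higher under TPM, 3024 scaled to listed reads and 3650 with limma-voom, and 813 were lower under TPM. With a library left out the counts ranged from 1119 to 1948 higher and from 1003 to 1766 lower. Calls fell by over 1.5 times without celastrol replicate 2 (1119 higher, 1137 lower), without celastrol replicate 3 (1211 higher) and without DMSO replicate 3 (1140 higher, 1003 lower).

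GPX4 changed sign under TPM (0.22), listed reads (0.0732), nuclear reads (0.0138), quantile normalization (0.0583) and limma-voom (0.0733); with a library left out it ranged from -0.0939 to 0.0295, above 0 without celastrol replicate 1, celastrol replicate 2 and DMSO replicate 1. SOD2 ranged from -0.0576 to 0.131 with a library left out, below 0 without celastrol replicate 1 and DMSO replicate 1. GSTK1 turned above 0 under TPM (0.0672), and GAPDH under TPM (0.18), listed reads (0.0327), quantile normalization (0.15) and limma-voom (0.0327). The cause was not tested. Over the named genes, 427 of the single-gene comparisons with an alternative kept direction and call, 75 lost the call, 17 gained it and 15 changed sign. The 427 include genes called in neither fit, and settings such as the replicate block cannot change direction. Where it was tested, SOD1 kept its call under 9 of 16 alternatives, MGST1 under 9 of 15 and GSTM3 under 9 of 12. The planned count tests were not run, since the deposited unit is FPKM. Ratios with GPX1 were not formed, because a library lists it at 0.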

Other observations

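The 14 listed genes of the NADPH oxidase family, its partners and xanthine dehydrogenase were mostly low in these cells. Other sources of superoxide were not listed. Of the 14, 3 were tested and 1 was called, where 29.5% of all genes tested were called. CYBA, the small membrane subunit shared by several oxidases, had 91.5, 94.4 and 101 FPKM with celastrol, against 74.9, 53.4 and 59.3 FPKM with DMSO (log2 fold change 0.63, limma-trend adjusted p = 0.00858). Its values did not overlap, and it was called under all 16 alternatives. CYBB, the catalytic subunit of the phagocyte oxidase, was at 0.524 ± 0.0714 FPKM with celastrol and 0.702 ± 0.0564 with DMSO, and is named after its values were seen.

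Of 7 tested genes of glutathione conjugate export and breakdown, 0 were higher and 2 lower, against 15.3% and 14.2% of all genes. Their median log2 fold change was -0.01. At an unadjusted p under 0.05 in limma-trend 1 was higher, and limma-voom called 1 higher. ABCC4, a pump for cyclic nucleotides and conjugates, had 9.57, 8.24 and 8.28 FPKM with celastrol, against 12.9, 13.6 and 13.4 FPKM with DMSO, a 1.53-fold decrease called under all 16 alternatives (adjusted p = 0.00205). ABCC5, a related pump, was 1.31-fold lower (adjusted p = 0.0104), a call lost under 1 of the 16 alternatives. ABCC1, the pump best known for glutathione conjugates, lay at -0.01 (adjusted p = 0.900) and is named after its value was seen.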
